A study of Mus musculus with 4 samples.

Results

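The odorant receptor trafficking chaperones are a set of 8 genes, chosen by symbol: the receptor transporting proteins Rtp1 and Rtp2 and the receptor expression enhancing proteins Reep1, Reep2, Reep3, Reep4, Reep5 and Reep6. All 8 were found among the 23337 gene symbols counted in each sample. RNA-seq gave their transcript counts in Tomato-positive cells that were sorted from the regenerated mouse olfactory epithelium, a mixture of stem cells, progenitors, neurons and supporting cells. Control cells were Lmnb1+/- and mutant cells were Lmnb1-/-, with 2 samples of each genotype and 1 mouse per sample. All 4 mice were of mixed background and carried K5Cre, a Cre transgene driven by the Keratin 5 promoter, with a floxed Lmnb1 allele and the Cre-dependent R26 Ai9 Tomato reporter. In the olfactory epithelium K5Cre acts in horizontal basal cells, so the sort collected those cells and their progeny, and Tomato reports recombination of the reporter and not of Lmnb1 itself. Every mouse, controls included, had been given 2 injections of 50 mg/kg methimazole, which injures the epithelium, and had recovered for 4 weeks. The mice formed 2 experimental groups, each with 1 control and 1 mutant of the same parents, age and sex, and the groups differed in all of these as well as in treatment. Control 1 and mutant 1 are the samples of experimental group 1, and control 2 and mutant 2 those of experimental group 2.

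An olfactory sensory neuron detects odorants through receptors that must leave the endoplasmic reticulum (ER) and reach the membrane of the cilia. Odorant receptors are poorly exported when made in other cell types, and RTP1 and RTP2 are transmembrane proteins that bind them and raise their amount at the cell surface. The REEP family is named for the same kind of assay, in which REEP1 raised the surface response of odorant receptors. The REEP proteins are also known as hairpin proteins of the ER membrane. REEP1 to REEP4 bind microtubules, REEP3 and REEP4 keep ER membrane away from chromosomes at mitosis, and REEP5 and REEP6 curve ER membrane into tubules.

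Rtp1 and Rtp2 lie on mouse chromosome 16 (mm10), at chr16:23429133-23433960 on the plus strand and chr16:23925548-23932394 on the minus strand. They are 491.6 kb apart, with 3 other protein-coding genes between them. Their coding sequences were identical at 545 of 663 aligned positions (82.2%). The stretch centred on their longest shared run is shown, because a short read from that run could be placed on the wrong gene. It covers 120 bases of a single coding exon of each gene (chr16:23431415-23431534 for Rtp1 and chr16:23927340-23927459 for Rtp2), read 5′ to 3′ on the strand of the gene, with capitals at the 24 positions that differ.
Rtp1: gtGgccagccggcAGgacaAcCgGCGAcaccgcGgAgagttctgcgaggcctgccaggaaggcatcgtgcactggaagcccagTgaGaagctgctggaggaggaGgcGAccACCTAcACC
Rtp2: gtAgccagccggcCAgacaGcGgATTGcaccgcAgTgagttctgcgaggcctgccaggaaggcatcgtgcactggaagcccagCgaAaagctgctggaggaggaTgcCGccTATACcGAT
The longest run shared by the coding sequences was 47 bases, shorter than the 50-base reads of these libraries. No 50-base window of the Rtp1 or Rtp2 transcript occurred exactly in another annotated gene. Within 2 mismatches, 28 of 740 coding windows of Rtp1 (3.78%) matched Rtp2, and 28 of 620 windows of Rtp2 (4.52%) matched Rtp1. Counts of the pair could therefore be separated over almost all of their length.

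The 6 Reep genes are spread over 4 chromosomes. Reep1 lies at chr6:71707561-71810710, Reep2 at chr18:34840589-34847463, Reep4 at chr14:70545251-70548933 and Reep6 at chr10:80329953-80336441, all on the plus strand. Reep3, at chr10:67009189-67096945, and Reep5, at chr18:34344885-34374070, are on the minus strand. Coding identity between pairs of Reep genes ran from 56.3% for Reep3 and Reep6 to 72.6% for Reep1 and Reep2, with no shared run above 23 bases. Reep3 was the member whose counts were least certain. Of its exon bases, 941 overlap genes on the opposite strand (Jmjd1c and Gm31763), and 79 of the 5381 windows of its transcript (1.47%) also occur in other genes. The strand setting of the counting is not given in the sources used here.

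Gene counts summed to between 14833396 (mutant 2) and 23704638 (control 1) per sample. Mutant 1 stood apart, with 1603 genes at 0 counts against 5173 to 6053 in the other samples, and 39.4% of its uniquely aligned reads outside genes against 22.1% to 24.9%. Counts in genes silent in the other samples gave a background of 1.79 counts per kb in mutant 1, which was at most 2.25% of its count for any member other than Reep2. Counts differed beyond sampling noise between all pairs of samples (chi-square per degree of freedom 50.7 to 305). Counts of Lmnb1, the targeted gene, were 477 and 395 in the controls and 326 and 149 in the mutants (log2 fold change -0.72, SE 0.31, edgeR adjusted p = 0.195). The floxed part is exon 2 alone and the count covers every exon. By PCR of exons outside the floxed part, the paper reported depletion of the Lmnb1 transcript in sorted mutant cells. It also found most Tomato-positive cells of mutant epithelium negative for lamin B1 staining. Omp, the defining marker of mature olfactory neurons, was at 9665 and 3267 CPM (counts scaled to the TMM-adjusted library total) in the controls and at 5359 and 912 CPM in the mutants, so mature neurons were represented in all 4 samples.

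Rtp1 and Rtp2 were the most abundant members by far. CPM per kb of exon was used to compare genes, because longer transcripts collect more reads. On this scale the mean over the 4 samples was 152.8 for Rtp1 and 132.4 for Rtp2, which placed them 254th and 302nd of the 22900 genes with a known length. Reep5 followed at 27.9, Reep1 at 14.6, Reep3 at 7.39, Reep6 at 6.31, Reep4 at 4.18 and Reep2 at 0.359. With the union of exons as the length, Rtp1 exceeded Rtp2 in all 4 samples, and Rtp2 exceeded Reep5 in all 4. With the longest annotated transcript the means of Rtp1 and Rtp2 were 152.8 and 145.8, and their order was not the same in every sample.

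The order in the middle was not stable between samples. Reep5 exceeded Reep1 in 3 of 4 samples, Reep1 exceeded Reep3 in 3 of 4, and Reep3 exceeded Reep6 in 2 of 4. Reep6 was above Reep4 in 3 of 4 samples, and the per-length ranges of this pair overlapped. Reep4 was the steadiest member (3.45 to 4.82 CPM per kb), whereas Rtp2 spanned a 5.38-fold range (42.1 to 226 CPM per kb) and Rtp1 a 5.22-fold range (52.0 to 271 CPM per kb). When the longest annotated transcript replaced the union of exons as the length, Reep3 rose to 11.3 CPM per kb and Reep4 to 6.36, and the other members moved by less than the spread between samples.

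**Figure D1:**
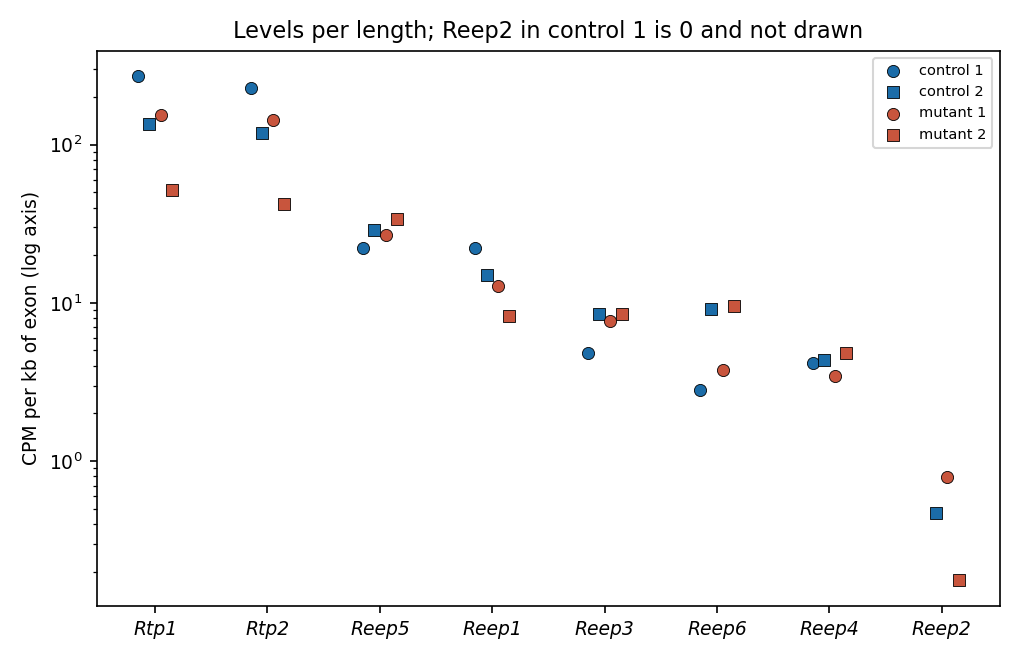
Levels of the 8 members in CPM per kb of exon, on a log axis, with genes ordered by their mean over the 4 samples, blue symbols for controls, red symbols for mutants, circles for experimental group 1 and squares for experimental group 2. Rtp1 and Rtp2 lie above every other member in all 4 samples, and Reep2, with no counts in control 1, lies below 1 CPM per kb.

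The comparison of mutant with control asked whether loss of lamin B1 was accompanied by a change in the transcripts of the receptor trafficking chaperones. Of the 8 members, 7 had more than 1 CPM in at least 2 samples and were tested. Rtp1, Rtp2 and Reep1 fell in mutant cells, to 0.467, 0.473 and 0.561 of the control level. No member was called higher, and 0 had an unadjusted p under 0.05 in that direction (0 by edgeR's quasi-likelihood test and by DESeq2 after adjustment). Reep5 and Reep6 were higher in the mutant of both experimental groups by amounts that did not pass. Over all 15438 genes tested, 4.30% were called lower, 1.28% higher and 5.58% in either direction (edgeR likelihood-ratio test with experimental group as a block, Benjamini-Hochberg adjusted p under 0.05). The median log2 fold change of the 7 tested members was -0.06, against -0.01 for all genes tested.

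RTP1 is the receptor transporting protein most often used to bring odorant receptors to the surface of cultured cells. Its transcript was at 847 CPM in control 1, 420 CPM in control 2, 479 CPM in mutant 1 and 162 CPM in mutant 2. The mutant was the lower sample within each experimental group, although the genotypes overlapped, because mutant 1 was above control 2. The log2 fold change was -1.10 (SE 0.26, 95% interval -1.61 to -0.59, edgeR adjusted p = 0.00174). Within experimental group 1 the log2 ratio was -0.82, and within experimental group 2 it was -1.37.

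Rtp2, the close relative of Rtp1, was at 606 CPM in control 1, 318 CPM in control 2, 381 CPM in mutant 1 and 113 CPM in mutant 2. It kept the same order of samples as Rtp1, with mutant 1 above control 2 and mutant 2 the lowest. The log2 fold change was -1.08 (SE 0.27, 95% interval -1.61 to -0.55, edgeR adjusted p = 0.00342). Within experimental group 1 its log2 ratio was -0.67, against -1.496 within experimental group 2. These samples are mixtures of cells, so fewer cells of a type and less of the RNA in each such cell cannot be told apart.

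Reep1, a microtubule-binding ER protein whose human counterpart is mutated in a hereditary spastic paraplegia, was at 91.3 CPM in control 1, 62.0 CPM in control 2, 52.6 CPM in mutant 1 and 33.8 CPM in mutant 2. It was the 1 member in which both mutants were below both controls. Over all genes tested, 13.3% had both mutants below both controls and 12.6% had both above. The log2 fold change of Reep1 was -0.84 (SE 0.17, 95% interval -1.16 to -0.51, edgeR adjusted p = 9.85e-05), the smallest p of the members and the 120th of all genes. The log2 ratios of -0.79 and -0.87 in the 2 experimental groups were close to each other.

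The calls for these 3 genes depended on the model. They passed with edgeR's quasi-likelihood test (adjusted p = 0.0128 for Rtp1, 0.0198 for Rtp2 and 0.0156 for Reep1) and with DESeq2 (adjusted p = 1.82e-09, 1.18e-06 and 0.00392). All genes tested were called lower at 3.20% and 3.45% by these tools. The 3 genes also passed with RLE size factors, with CPM above 1 required in all 4 samples, with thinned counts and with a background subtracted from mutant 1, where 4.20%, 5.14%, 4.29% and 4.26% of all genes were called lower. Without the experimental group as a block the log2 fold changes were -0.98, -0.90 and -0.83, edgeR's adjusted p was 1 for each, and no gene of the 15438 was called lower. Without the filter on low counts, Rtp1 (edgeR adjusted p = 0.218) and Rtp2 (edgeR adjusted p = 0.101) no longer passed, whereas Reep1 did (edgeR adjusted p = 0.000763), and 2.31% of all genes were called lower.

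**Figure D2:**
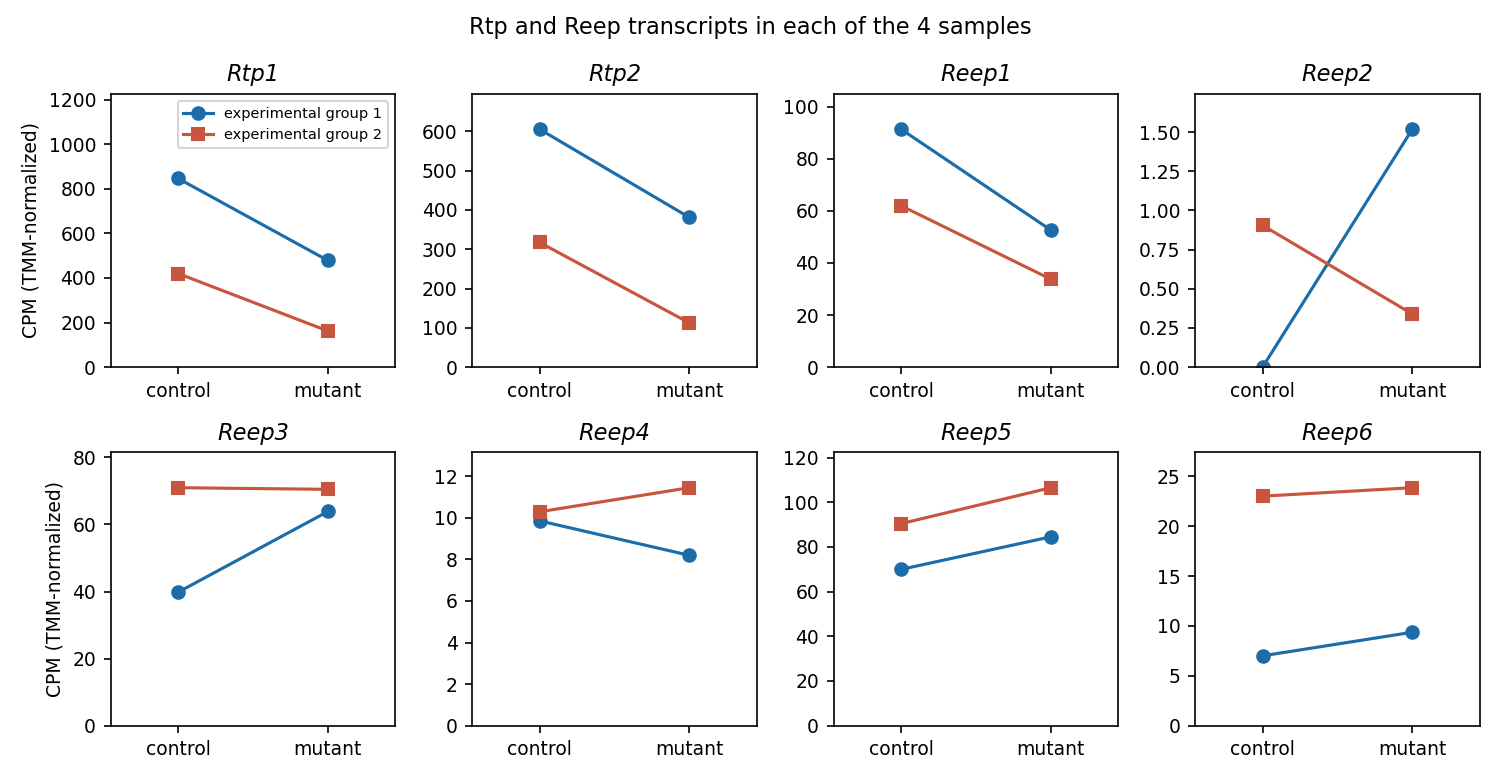
TMM-normalized CPM of each of the 8 members, 1 panel per gene with its own linear axis from 0, with lines joining the control and the mutant of experimental group 1 (blue circles) and of experimental group 2 (red squares). Both lines fall for Rtp1, Rtp2 and Reep1, and both rise for Reep5 and Reep6 by amounts that did not pass the test.

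Reep2, a neuronal relative of Reep1, was barely detected. Its counts were 0 and 19 in the controls and 35 and 5 in the mutants, in the order of the experimental groups. The 0 in control 1 allows up to 0.130 CPM (3 counts), for counting error only. Only mutant 1 was above 1 CPM, and the background of that library accounted for 9.86% of its count, so Reep2 was not tested.

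Reep3 and Reep4, the members that act on the ER at mitosis, did not pass the test. Reep3 was at 39.8 CPM in control 1, 71.0 CPM in control 2, 63.9 CPM in mutant 1 and 70.5 CPM in mutant 2. Control 1 was the low sample and the other 3 were close together. The log2 fold change was 0.34 (SE 0.20, 95% interval -0.05 to 0.72, edgeR adjusted p = 0.424), with a log2 ratio of 0.68 in experimental group 1 against -0.01 in experimental group 2. Reep4 was at 9.85 CPM in control 1, 10.3 CPM in control 2, 8.20 CPM in mutant 1 and 11.5 CPM in mutant 2. The mutants were the lowest and the highest of the 4 samples. Its log2 fold change was -0.06 (SE 0.40, edgeR adjusted p = 0.981), and the 95% interval from -0.84 to 0.73 includes neither the fold change of Rtp1 nor that of Rtp2, and reaches that of Reep1 at its lower end.

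Reep5 and Reep6, the ER tubule-shaping members, did not pass either. Reep5 was at 69.9 CPM in control 1, 90.4 CPM in control 2, 84.5 CPM in mutant 1 and 107 CPM in mutant 2. The mutant was the higher sample in each experimental group, and mutant 1 was below control 2. The log2 fold change was 0.26 (SE 0.17, 95% interval -0.08 to 0.59, edgeR adjusted p = 0.529). Reep6, best known from rod photoreceptors, was at 7.001 CPM in control 1, 23.0 CPM in control 2, 9.37 CPM in mutant 1 and 23.9 CPM in mutant 2. It separated the experimental groups and not the genotypes. The log2 fold change was 0.23 (SE 0.31, 95% interval -0.38 to 0.85, edgeR adjusted p = 0.829).

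**Figure D3:**
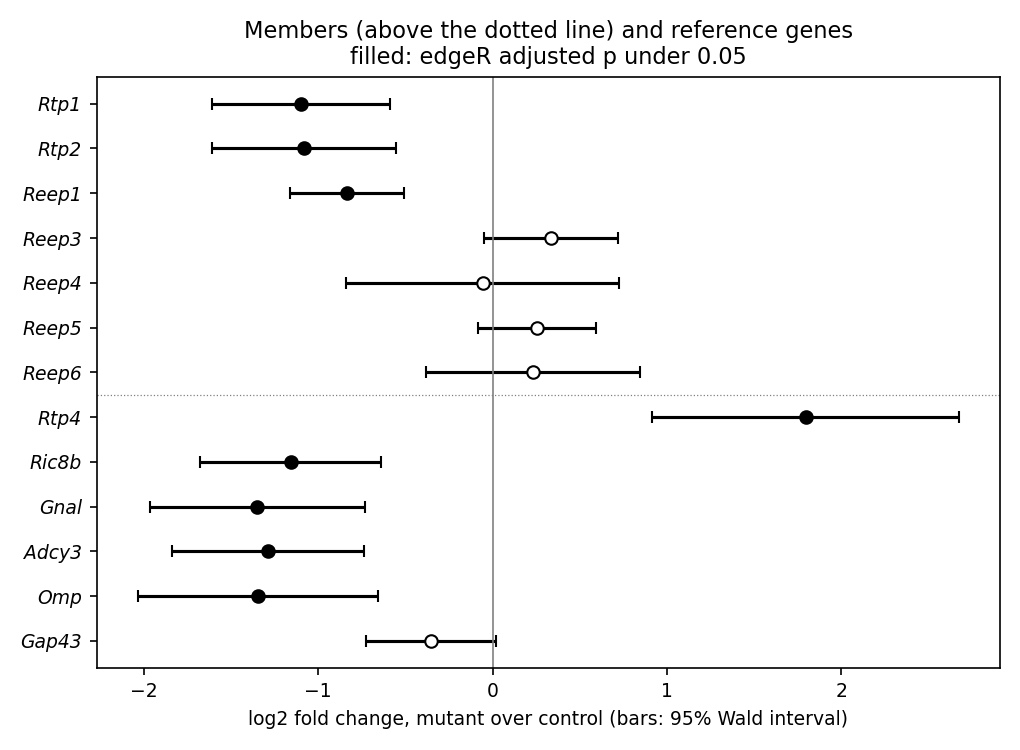
Log2 fold change of mutant over control for the 7 tested members (above the dotted line) and 6 reference genes, with 95% Wald intervals from the edgeR model and filled points for an adjusted p under 0.05. The intervals of Rtp1, Rtp2 and Reep1 lie below 0, those of Reep3, Reep4, Reep5 and Reep6 include 0, and Rtp4 lies above 0.

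The members fell into sets by how their levels moved over the 4 samples. The measure was the root mean square difference between log2 CPM profiles, each centred on its own mean. It is a description over 4 samples of the same libraries. The Rtp1 and Rtp2 profiles differed by 0.076. The ratio of Rtp2 to Rtp1 per kb was nearly constant at 0.834 and 0.882 in the controls and 0.929 and 0.809 in the mutants. Reep1 differed from Rtp1 by 0.386 and from Rtp2 by 0.435. Reep3 and Reep5 differed by 0.182 and Reep4 and Reep5 by 0.196, whereas Reep3, Reep4, Reep5 and Reep6 stood 0.967 to 1.554 away from Rtp1.

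Reep transcripts as a sum were level across the samples while Rtp transcripts were not. The 6 Reep genes summed to 218 CPM in control 1, 258 CPM in control 2, 220 CPM in mutant 1 and 246 CPM in mutant 2. Within this sum Reep1 was lower in the mutant of each experimental group, and Reep5 and Reep6 were higher. Rtp1 and Rtp2 summed to 1452 CPM in control 1, 738 CPM in control 2, 859 CPM in mutant 1 and 275 CPM in mutant 2. The Rtp genes thus made up 87.0% and 74.1% of the members' CPM in the controls and 79.6% and 52.7% in the mutants.

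The genes most like each member were taken from 12285 tested genes with a mean above 5 CPM, by the same measure. For Rtp1 they were E130309D14Rik (0.026), Stbd1 (0.028) and Gabbr1 (0.038), and 29 genes lay within 0.1. For Rtp2 they were Entpd2 (0.030), 6330416G13Rik (0.041) and Spock2 (0.051). Reep1 was nearest to Ttll11 (0.043), Osbp2 (0.043) and Pygo1 (0.046). Among the members that did not pass the test, Reep3 was nearest to Snhg1, Pms2 and Fbxo34, Reep4 to Mudeng, Rexo4 and Wdr77, Reep5 to Slc25a24, Ppp1r16b and Zfp592, and Reep6 to Ugt2a2, Zfp52 and Tfrc. Reep2, with few counts, had no gene within 0.1, and its nearest were Gm5607, Gm3002 and Il1f9 (0.395 to 0.586).

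Rtp1, Rtp2 and Reep1 moved in the same direction as the markers of mature olfactory neurons. All 15 of these markers were called lower (10 by DESeq2, 7 without the filter on low counts), and their median was -1.35 on the log2 scale (-0.87 within experimental group 1 and -1.79 within experimental group 2). Among them, Cngb1 (-1.37) and Cnga4 (-1.51) encode subunits of the olfactory cyclic nucleotide-gated channel, Pde4a (-1.04) encodes a phosphodiesterase and Umodl1 fell by 1.46 on the log2 scale. The summed level of the list was 21710 CPM in control 1, 9554 CPM in control 2, 11670 CPM in mutant 1 and 2784 CPM in mutant 2, the same order of samples as Rtp1 and Rtp2. Of the 15 markers, 11 fell further than Reep1 and 4 less far in experimental group 1. In experimental group 2, 15 fell further than Reep1 and 0 less far. Against Rtp2 the counts were 13 further and 2 less far in experimental group 1, and 12 and 3 in experimental group 2. The part of this list in the fall of the 3 members was not tested.

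The Rtp1 transcript was set against mature neuron transcripts in each sample. The ratio of Rtp1 to Omp per kb was 0.0602 in control 1 and 0.0614 in mutant 1, and 0.0884 in control 2 and 0.122 in mutant 2. The ratio of Rtp1 to Adcy3, the adenylyl cyclase of odorant transduction, was 0.971 in control 1 and 1.10 in mutant 1, and 1.26 in control 2 and 1.46 in mutant 2. Relative to Omp and Adcy3, Rtp1 was not lower in the mutant of either experimental group, but this did not hold for every marker. Of the 15 mature neuron markers, 10 fell further than Rtp1 in experimental group 1 and 5 less far (Slc17a6, Gng13, Stoml3, Pde4a and Gnal). In experimental group 2, 13 fell further and 2 less far (Pde1c and Pde4a). These genes were singled out after their values were seen, and the ratios have no test. The fold changes of the markers themselves were -1.35 for Omp (edgeR adjusted p = 0.00714) and -1.29 for Adcy3 (edgeR adjusted p = 0.000583), both on the log2 scale. Both lost the call without the block and without the filter on low counts. Omp also lost it with DESeq2 (adjusted p = 0.0674) and with CPM above 1 required in all 4 samples (edgeR adjusted p = 0.0544).

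Set against the receptors they serve, Rtp1 and Rtp2 gave another order. The counts of 1123 Olfr symbols summed to 2441 CPM in control 1, 1836 CPM in control 2, 2327 CPM in mutant 1 and 761 CPM in mutant 2. The ratio of Rtp1 plus Rtp2 counts to Olfr counts was 0.595 in control 1 and 0.369 in mutant 1, and 0.402 in control 2 and 0.361 in mutant 2. It was lower in the mutant of each experimental group, with no test. The background of mutant 1, 1.79 counts per kb, was not subtracted from its Olfr counts, and its part in this ratio was not tested. Near-identical Olfr genes lose reads that align to more than 1 place, so the Olfr sum is a lower estimate.

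**Figure D4:**
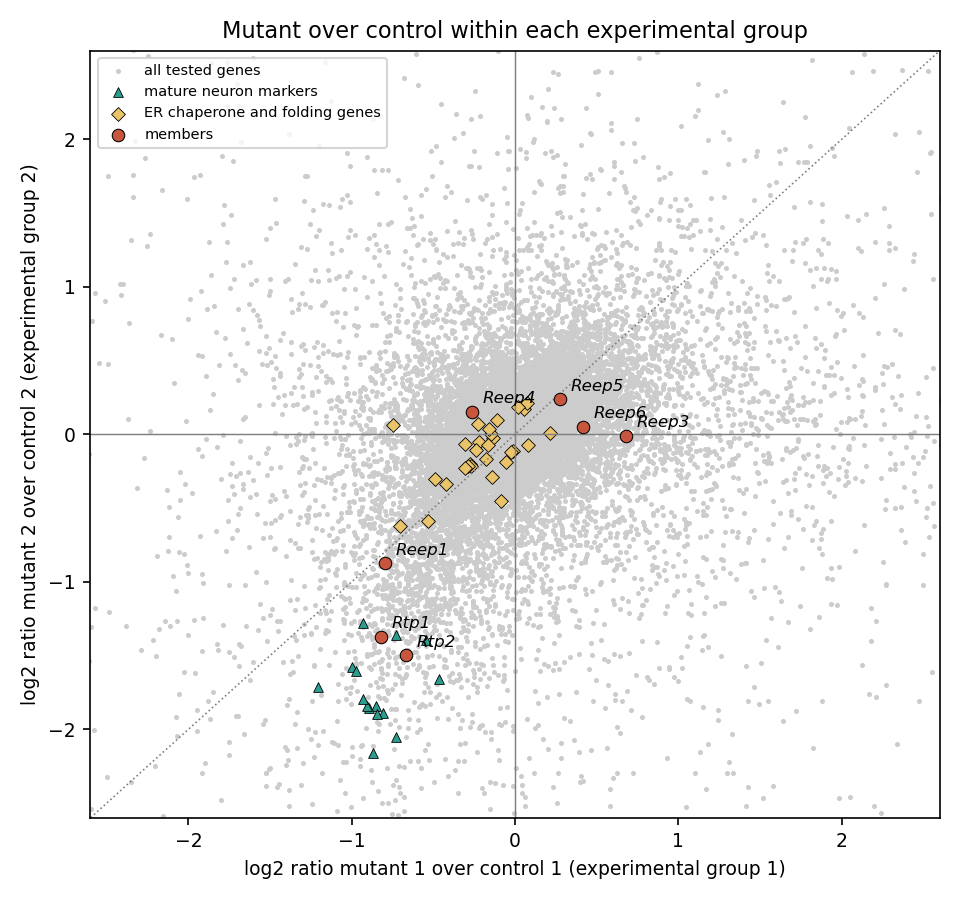
Log2 ratio of mutant over control within experimental group 1 (horizontal) and experimental group 2 (vertical) for all tested genes (grey), mature neuron markers (green triangles), ER chaperone and folding genes (yellow diamonds) and the 7 tested members (red circles), with the dotted line at equal ratios and 459 genes beyond the axes. Rtp1 and Rtp2 lie at the lower left near the mature neuron markers. Reep1 is also at the lower left, but all 15 markers fell further than it in experimental group 2. Reep3, Reep4, Reep5 and Reep6 lie near or above 0 in experimental group 2.

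Genes that work beside the members were counted from lists of the pathway. Of 6 tested genes that couple the receptor to its G protein or modulate it, 3 were lower and 0 higher (median log2 fold change -0.87). The 3 were Gnal (-1.35), the olfactory G protein alpha subunit, Gng13 (-0.97), its gamma subunit, and Ric8b, an exchange factor that raises odorant receptor signalling in heterologous cells together with RTP1. Ric8b was at 756 CPM in control 1, 552 CPM in control 2, 422 CPM in mutant 1 and 198 CPM in mutant 2, and its log2 fold change came to -1.16 (SE 0.27, adjusted p = 0.00113 by edgeR). Gnal and Gng13 are also on the mature neuron list. Without the filter on low counts Gng13 still passed (edgeR adjusted p = 0.0106), whereas Gnal (edgeR adjusted p = 0.330) and Ric8b (edgeR adjusted p = 0.193) did not. Gnal also did not pass with DESeq2 (adjusted p = 0.104).

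Few genes of the general machinery of the ER were called. Of 29 ER chaperone and folding genes, 24 had a negative log2 fold change (median -0.14), against 7884 of all 15438 genes tested. At an unadjusted p under 0.05, 3 were lower and 0 higher. After adjustment 1 gene was lower and 0 higher, with 4.30% of all genes called lower. That gene was Dnajb9, an ER co-chaperone (-0.67, edgeR adjusted p = 0.00273). Of 25 tested genes of ER export, such as COPII coat subunits and cargo receptors, 0 passed in either direction, with a median of -0.02. Negative log2 fold changes numbered 14 of the 25. None of these 25 had an unadjusted p under 0.05, and edgeR's quasi-likelihood test and DESeq2 also called 0. Of 17 other ER-shaping genes, 15 had a negative log2 fold change (median -0.22). At an unadjusted p under 0.05, 3 were lower and 0 higher. After adjustment 2 genes were lower and 0 higher. They were Rtn1 (-0.89, edgeR adjusted p = 0.0019) and Rtn2 (-0.62, edgeR adjusted p = 0.0136), both reticulons, which share the hairpin fold with the REEP family. Rtn2 did not pass with the quasi-likelihood test (edgeR adjusted p = 0.0506) or DESeq2 (adjusted p = 0.0922).

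Reep3 and Reep4 were read beside mitotic genes, since both proteins act in dividing cells. Of 14 mitotic spindle and chromatin genes, 5 were higher and 0 lower (median log2 fold change 0.89). By edgeR's quasi-likelihood test and by DESeq2 4 were higher. The 5 included Top2a (0.98), Cenpf (1.32), Mki67 (0.81) and Ccnb1 (1.08). The values of 0.34 for Reep3 and -0.06 for Reep4 did not pass the test.

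Markers of other cells that the sort could hold gave the setting of these changes. The immature neuron list had 2 of 13 genes lower (Stmn4 and Dcx), and Gap43, its usual marker, had a log2 fold change of -0.35 (edgeR adjusted p = 0.351). Progenitor markers had 2 of 8 genes higher (Kit and Hes6, list median 0.52), and horizontal basal cell markers 2 of 8 higher (Krt15 and Egfr, list median 0.43). Of sustentacular cell markers 0 of 10 passed with edgeR (median 0.40, 3 higher at an unadjusted p under 0.05), and of gland markers 0 of 5 (median 0.35, 1 lower and 1 higher at an unadjusted p under 0.05). edgeR's quasi-likelihood test called 2 sustentacular and 1 horizontal basal cell marker higher. DESeq2 called 5 sustentacular and 6 horizontal basal cell markers higher and 1 gland marker lower, with 1.14% of all genes called higher. Ciliated cell markers had 3 of 6 genes lower (Ccdc40, Foxj1 and Tekt1, median -0.69) and microvillar cell markers 1 of 7 lower (Trpm5, median -0.69).

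Cells outside the epithelial lineage were also represented. Immune cell markers summed to 278 CPM in mutant 1 and 584 to 765 CPM in the other samples. Lyz2, a macrophage and neutrophil gene (154 to 693 CPM), made up most of the sum except in control 1 (223.5 of 584 CPM). Without Lyz2, a split made after the values were seen, the other 15 summed to 361 CPM in control 1 and 72.0 to 129 CPM in the other samples, so control 1 was then the sample that stood apart. The list median of the log2 ratio was -1.64 in experimental group 1 against 1.13 in experimental group 2, and 0 of 14 tested genes passed. Stromal markers had 2 of 5 genes lower (Col1a2 and Col1a1, median -0.65). Endothelial and red cell markers summed to 16.7 to 37.1 CPM, and 0 of 4 tested passed. For the immune list and the endothelial and red cell list, edgeR's quasi-likelihood test, DESeq2 and an unadjusted p under 0.05 also gave 0. The quasi-likelihood test called 2 stromal markers lower, and DESeq2 called 2 lower and 1 higher. The part of these cells in the values of the members was not tested. Without the block, no gene of any of these marker lists or pathway lists passed.

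The remaining RTP genes did not follow Rtp1 and Rtp2. Rtp4, an interferon-induced gene that lies between them on chromosome 16 and was not counted among the members, was at 3.63 CPM in control 1, 4.10 CPM in control 2, 8.67 CPM in mutant 1 and 20.6 CPM in mutant 2. Both mutants were above both controls, and the log2 fold change was 1.79 (SE 0.45, edgeR adjusted p = 0.00445). Without the block Rtp4 did not pass (edgeR adjusted p = 1). Of its exon bases, 296 overlap other genes. Rtp3, known from liver, had counts of 0 and 16 in the controls and 181 and 10 in the mutants, and was not tested.

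Promoter sequence from RefSeq (GRCm38.p6) was matched for 2 of the 8 members, Rtp2 and Reep1. The 250 bases before the RefSeq start of Rtp2 (chr16:23930795-23931044, minus strand) are shown because Rtp2 was among the members that fell. They lie within the GENCODE gene, which extends further upstream, and hold no annotated exon base, and the capitals mark the 1 match to CCCNNGGG, the core letters of the motif bound by EBF factors of olfactory neurons.
Rtp2 promoter: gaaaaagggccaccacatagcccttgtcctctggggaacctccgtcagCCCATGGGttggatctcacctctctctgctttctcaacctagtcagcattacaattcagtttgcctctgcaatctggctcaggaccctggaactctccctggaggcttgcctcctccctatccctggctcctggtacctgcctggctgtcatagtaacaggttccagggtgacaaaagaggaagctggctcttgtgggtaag
The match lies 202 to 195 bases before the start. Of 32817 mouse promoter windows of the same length, 11.8% hold CCCNNGGG on either strand, and the corresponding window of Reep1 holds 1 match as well. In GENCODE, 120 bases of the Reep1 window are annotated exon. The match in Reep1, 65 to 58 bases before its start, lies in that exon part. The homeodomain motif TAATTA was found in neither window and in 4.8% of all windows. The E-box CANNTG was not found for Rtp2, was found 2 times for Reep1 and was present in 66.2% of all windows. These matches describe letters and not binding.

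**Figure D5:**
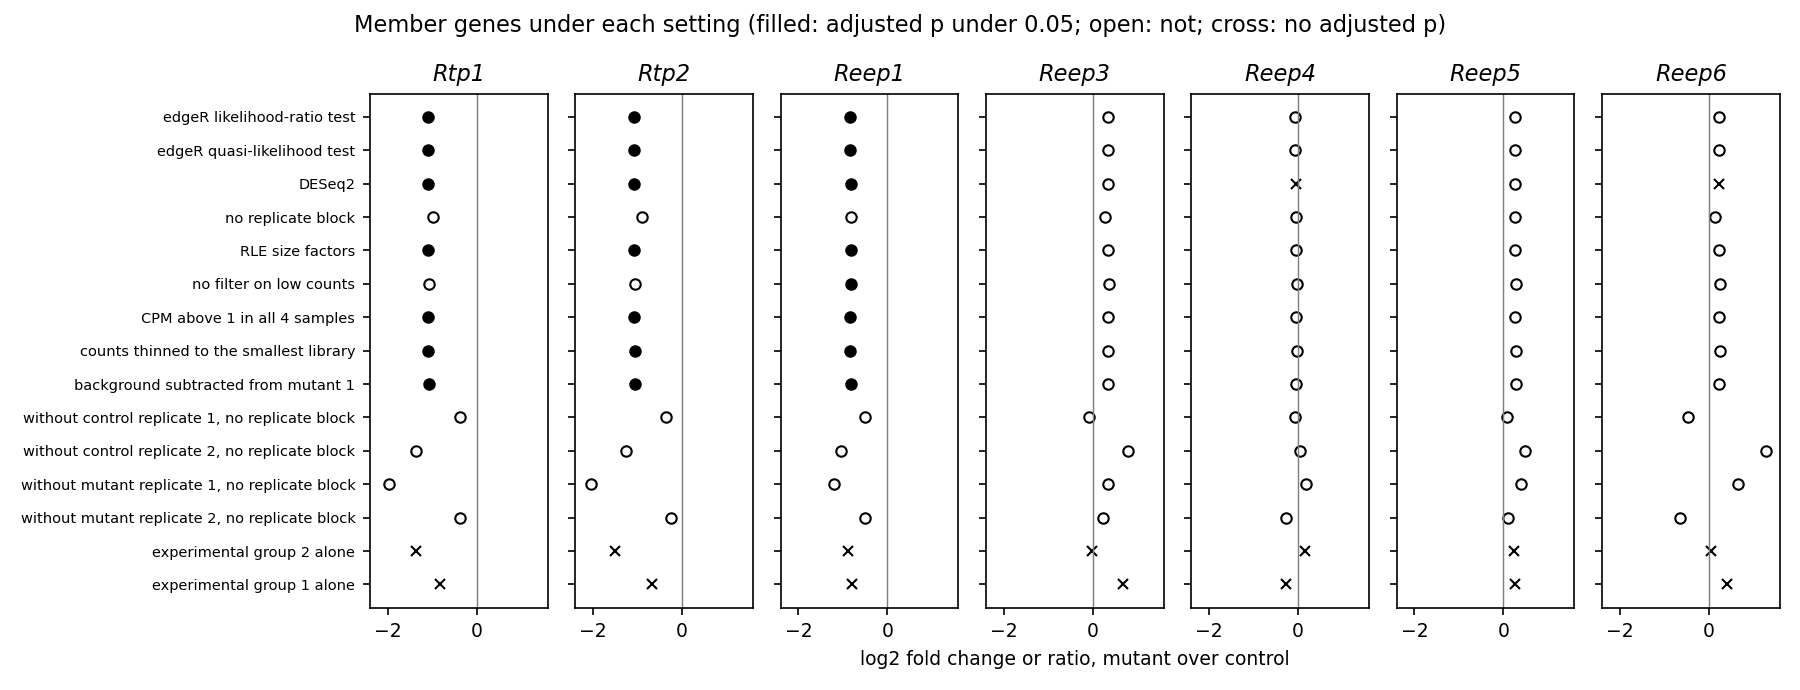
Log2 fold change (or, for 1 experimental group alone, log2 ratio) of mutant over control for the 7 tested members under each processing setting, with filled circles for an adjusted p under 0.05, open circles for calls that did not pass and crosses where no adjusted p was given. The values of Rtp1, Rtp2 and Reep1 stay below 0 in every setting drawn, and filled circles are lost without the replicate block, with a library left out and, for Rtp1 and Rtp2, without the filter on low counts.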

How the data were processed

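RNA-seq was performed on 4 samples of sorted Tomato-positive cells, grouped by the genotype in the labels. The authors depleted ribosomal RNA, treated RNA with DNase, removed low-quality reads, aligned single-end 50-base reads to mm10 with TopHat2 2.0.7 and Bowtie2 2.0.6 (versions per the submitters' processing notes) and counted them with HTSeq in intersection-nonempty mode. The deposited values are these raw counts per gene symbol, and the annotation and strand setting used for counting are not given in the sources used here. The 5 tally lines of each file, of which reads outside genes were 22.1% to 39.4% of uniquely aligned reads, were left out.

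Genes with CPM above 1 in at least 2 samples were tested with the edgeR 4.0.16 likelihood-ratio test in R 4.3.3, with trimmed mean of M-values (TMM) factors and genotype plus experimental group as terms, as in the study's methods, and Benjamini-Hochberg adjustment over all genes tested. Standard errors and 95% intervals are Wald values from the model. Ratios within an experimental group used log2 CPM with a prior count of 2, from 1 mutant and 1 control, and have no test. The samples are separate mice, 2 per genotype. Pairing comes from the group numbers in the labels. The study's methods state that parents, age, sex and treatment matched within an experimental group. Deviations of paired samples from their genotype means correlated at 0.522 over genes.

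Lengths and positions came from GENCODE annotation of mm10, where 98.1% of symbols matched, 20953 by current and 1947 by older symbol. Named genes were the 8 members, Rtp3, Rtp4, Lmnb1, 5 reference genes (Omp, Adcy3, Gnal, Ric8b and Gap43), up to 4 called genes per list with the smallest p, and the 3 genes most like each member. The members and the lists were chosen with earlier results of these data known. The result of 1 marker list is not reported here. Scripts were tested on simulated data. Alternatives were the quasi-likelihood test, DESeq2 1.42.0, no replicate block, RLE factors, no filter, CPM above 1 in all 4 samples, thinned counts, background subtracted from mutant 1, each experimental group alone, each library left out, another gene length and another measure of likeness. A count of 3, the smallest taken as detected, was 0.130 to 0.203 CPM. Floors cover counting error only.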

Additional observations from a re-analysis of the deposited data

Results flagged for a closer look

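The log2 ratios of Reep3 and Reep4 had opposite signs in the 2 experimental groups, although that of Reep3 was close to 0 in experimental group 2 and neither gene passed the test. The log2 ratio of mutant over control was 0.68 for Reep3 in experimental group 1 and -0.01 in experimental group 2. Reep4 had -0.26 in the first of these groups and 0.15 in the second. Each ratio rests on 1 mutant and 1 control, and the difference between the groups was not tested.

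Reads that fell outside annotated genes enter no comparison. Their share in mutant 1 was 39.41% of the uniquely aligned reads, against 23.8% and 24.9% in the controls.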

How the results depend on the processing

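Rtp1, Rtp2 and Reep1 kept their negative direction in all 14 alternatives and their call with the quasi-likelihood test, DESeq2, RLE factors, CPM above 1 in all 4 samples, thinned counts and a background subtracted from mutant 1. Without the replicate block, log2 fold changes were -0.98 for Rtp1, -0.90 for Rtp2 and -0.83 for Reep1 and none passed. In that setting 0 genes were called lower (664 with the block) and 6 higher (197 with it). Of the 15438 genes tested, 348 had an unadjusted p under 0.05 (2460 with the block). Without the filter on low counts Rtp1 (-1.07) and Rtp2 (-1.06) no longer passed, and this setting moved the median of all genes to 0.14. The cause was not tested. The quasi-likelihood test called 117 genes higher. With 1 library left out, and therefore no block, or with 1 experimental group alone, values ran from -1.97 to -0.37 for Rtp1, -2.05 to -0.24 for Rtp2, -1.19 to -0.51 for Reep1, -0.071 to 0.80 for Reep3, -0.26 to 0.18 for Reep4, 0.09 to 0.49 for Reep5 and -0.65 to 1.28 for Reep6, and genes called lower and higher numbered 0 to 5 and 3 to 33. No member passed with any 1 library left out, and in these fits the lone sample is assumed to vary like the other genotype. Reep3 reversed to -0.071 without control 1 and to -0.01 without experimental group 1. Reep4 reversed to 0.04 without control 2, 0.18 without mutant 1 and 0.15 without experimental group 1. Reep6 reversed to -0.47 without control 1 and -0.65 without mutant 2. DESeq2 gave no adjusted p for Reep4, Reep6 and Rtp4. By the longest transcript, levels were 11.3 CPM per kb for Reep3 and 6.36 for Reep4. Ranking by Pearson correlation shared 0 of the 3 genes most like each member, except 1 of 3 for Reep3 and Reep5. At these depths Reep2 was too low to be tested.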
